A study of Mus musculus with 8 samples.

Results

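The DNA replication and G1/S genes examined here are 40 genes, given by name as a list, out of 24972 genes in the deposited expression table. They cover the loading and firing of replication origins, the replicative polymerases, the sliding clamp and its loader, deoxynucleotide supply, and a few regulators of the step from G1 into S phase. All 40 passed the filter on low values that left 13267 genes to test, a mean of at least 10 normalized counts over the 8 libraries. RNA was sequenced from untreated primary fibroblasts of embryonic day 14 mouse embryos, grown in DMEM with 10% fetal bovine serum and harvested after 2 passages. The 4 genotypes were wild type (WT), cells with 1 functional Tfam allele (Tfam+/-), cells without Zbp1 (Zbp1-/-), and cells with both lesions (Tfam+/-Zbp1-/-, called the double mutant below). Tfam is the gene of a mitochondrial DNA packaging and transcription factor, and Zbp1 is that of an innate immune sensor that binds Z-form nucleic acids. Each genotype had 2 libraries. The sources used here do not tell if these were different embryos, so each p-value measures the spread between these libraries, which may be technical.

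Origins are licensed in G1, when the origin recognition complex, CDC6 and CDT1 load the ring-shaped MCM2-7 helicase onto DNA, and fired in S phase, when CDC45 and the GINS complex join the helicase. DNA polymerase alpha with primase then starts each strand, polymerases epsilon and delta extend it on the PCNA clamp, and flap endonuclease and DNA ligase join the lagging-strand pieces. Transcription of many of these genes is under control of the E2F factors that the retinoblastoma protein holds back until G1 ends, so the mRNAs are commonly read as a sign of cycling cells. In bulk RNA, a larger share of cycling cells and more mRNA per cycling cell cannot be told apart.

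Replication genes had their lowest levels mostly in Zbp1-/- libraries and their highest mostly in double-mutant libraries and 1 Tfam+/- library. For 30 of the 40 genes the lowest of the 8 libraries was a Zbp1-/- library (16 in replicate 1 and 14 in replicate 2), against 20.0% of all genes tested. The highest was a double-mutant library for 20 genes (11 and 9), against 26.8%, and a Tfam+/- library for 18, against 21.8%. Of the 18, 16 were highest in Tfam+/- replicate 1 and 2 in replicate 2. Tfam+/- replicate 1 and Zbp1-/- replicate 2 shared a shift that is described below. Both double-mutant libraries stood above all other 6 for 14 genes (Orc1, Mcm4, Mcm5, Gins1, Gins3, Prim1, Pole2, Pcna, Rfc4, Rfc5, Lig1, Rrm2, Tyms and Slbp), where 14.9% of all genes tested did the same, so the 14 of 40 is above that background. Both Zbp1-/- libraries stood below all other 6 for 8 genes (Orc1, Cdc6, Mcm6, Prim1, Prim2, Rfc5, Rrm2 and Ccne1), against 2.98% of all genes tested. Both Tfam+/- libraries were above all others for 4 genes (Cdt1, Mcm6, Fen1 and Ccne1), against 4.73%, and both WT libraries below all others for 3 (Gins3, Gins4 and Rfc3), against 11.6%. The summed level of the 40 genes was 0.185% and 0.186% of all normalized counts in the WT libraries, 0.201% and 0.199% in Tfam+/-, 0.16% and 0.164% in Zbp1-/-, and 0.203% in both double-mutant libraries. The Zbp1-/- libraries were thus the lowest pair on this sum and did not overlap any other genotype.

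**Figure D1:**
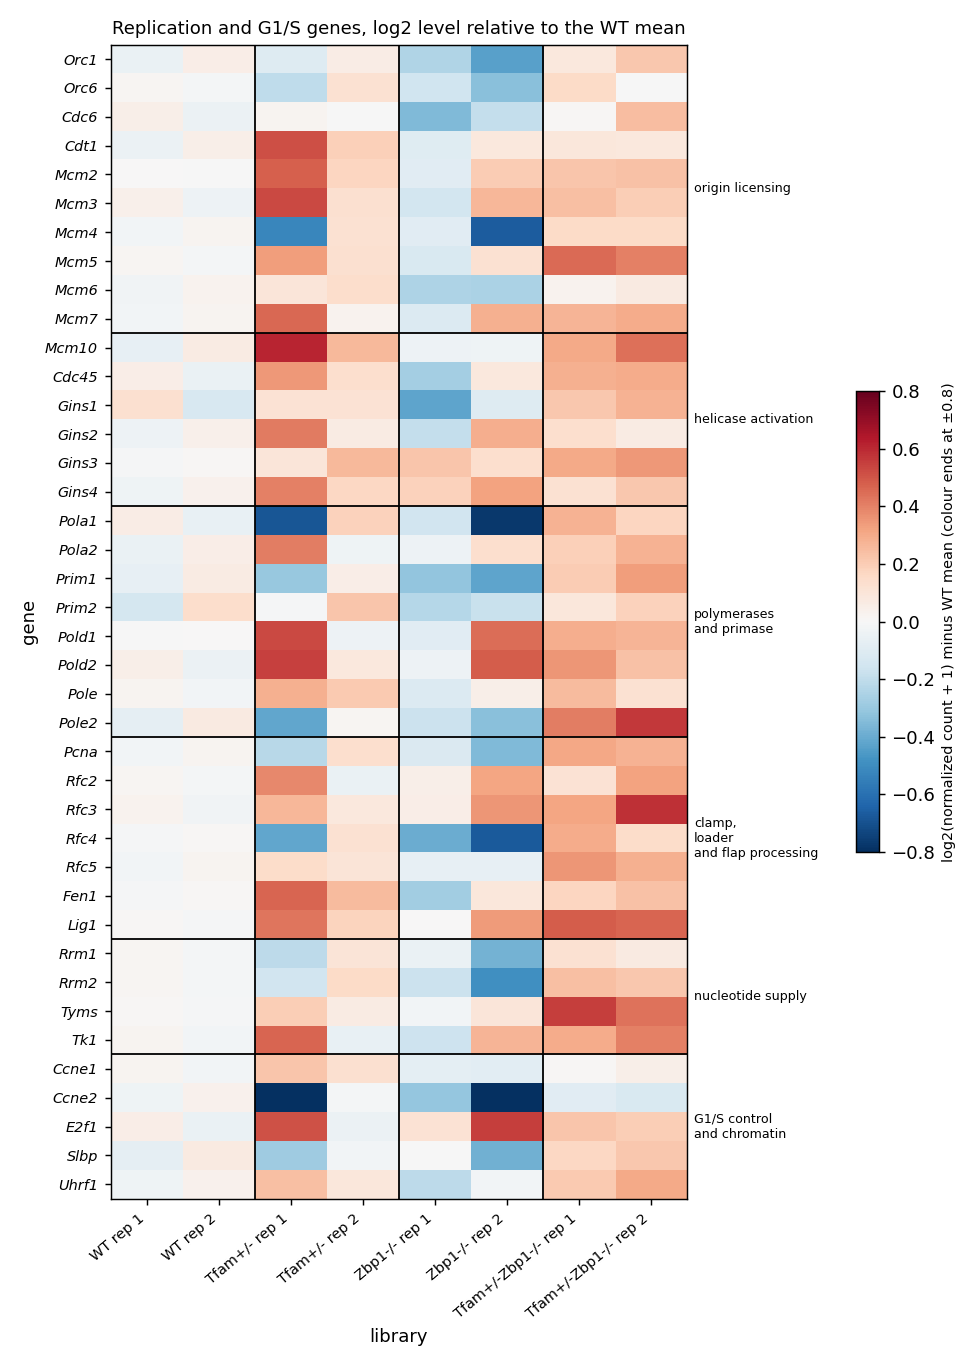
Levels of the 40 genes in each of the 8 libraries, as log2(normalized count + 1) minus the mean of the 2 WT libraries; red is above and blue below the WT mean, rows are grouped by role and the colour scale ends at 0.8 in both directions. The double-mutant columns are red for nearly every gene (39 and 38 of 40 above the WT mean), while Tfam+/- replicate 1 and Zbp1-/- replicate 2 carry the same mixture of strong red and strong blue.

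The libraries held between 16752835 and 18303036 normalized counts over 16051 to 16261 genes with a value above 0. Tfam, the check of the labels, had 629 and 610 normalized counts in WT, 278 and 365 in Tfam+/- libraries, 675 and 471 in Zbp1-/- and 424 and 375 in the double mutant. Zbp1 was low in WT (7.34 and 3.19), high in Tfam+/- (64.6 and 69.8) and at most 3.79 in the 4 libraries without the gene, so it separated the Zbp1-/- libraries poorly from WT. All 10 fibroblast markers exceeded 100 normalized counts in every library, and their sum was highest in Zbp1-/- (629360 and 737087, against 500519 to 605784 elsewhere). Within their genotypes, the sum was higher in Tfam+/- replicate 1 (605784) and Zbp1-/- replicate 2 (737087), the libraries with the shared shift. The summed leukocyte markers, all 8 of which are in the table, moved with the Zbp1 genotype: 4452 to 4517 in WT and 5193 to 5686 in Tfam+/-, against 2570 to 2850 in Zbp1-/- and 2294 to 2307 in the double mutant. Skeletal muscle markers were lowest in the double mutant (summed 362 to 369, against 432 to 907 elsewhere), as were epithelial markers (185 to 187, against 260 to 490), and neural crest and Schwann markers were highest in Zbp1-/- (305 to 324, against 114 to 201). Endothelial markers summed to 272 to 299 in WT, 326 to 386 in Tfam+/-, 233 to 272 in Zbp1-/- and 302 to 318 in the double mutant. The erythroid sum was at most 3.93, with Hbb-bt, Hbb-bs and Hba-a2 at 0 throughout. The part of these markers in the results on replication genes was not tested.

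Tfam+/- replicate 1 and Zbp1-/- replicate 2 stood apart from their partners in the same way. Ccne2, which encodes cyclin E2, a partner of CDK2 at S-phase entry, showed it most: 559 and 585 normalized counts in WT (replicate 1 then replicate 2, the order used throughout), 200 and 565 in Tfam+/- cells, 461 and 167 in Zbp1-/-, and 537 and 525 in the double mutant. The 200 and the 167 belong to those 2 libraries. Pold1, the catalytic subunit of polymerase delta, moved the other way, with 483 and 487 in WT, 699 and 471 in Tfam+/- libraries, 456 and 661 in Zbp1-/-, and 594 and 587 in the double mutant. Over the 40 genes, the difference of Tfam+/- replicate 1 from replicate 2 and that of Zbp1-/- replicate 2 from replicate 1 had a Pearson r of 0.94 and a Spearman rho of 0.88 (across genes, which are not independent, and with each difference holding 1 of the libraries in question). The typical size of a replicate difference was 0.31 (median absolute log2) within Tfam+/- and 0.27 within Zbp1-/-, against 0.06 within WT and 0.07 within the double mutant. Over all genes tested the corresponding sizes were 0.35, 0.32, 0.07 and 0.07, so the typical shift of the 40 genes was no larger than that of the transcriptome.

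The mean shift of a gene in the 2 libraries followed the GC content of its longest coding transcript (r 0.88 and rho 0.89 across the 40 genes, and 0.78 and 0.82 across 12733 genes with a matched transcript). The 10 genes lowest in the 2 libraries (Ccne2, Pola1, Mcm4, Rfc4, Slbp, Rrm1, Rrm2, Pcna, Pole2 and Orc6) had a median transcript GC content of 45.0%. The 10 highest (Mcm2, Pola2, Rfc2, Mcm3, Mcm7, Gins2, Tk1, E2f1, Pold2 and Pold1) had 55.1%, and the median over all genes tested lay between them. Transcript length had no such relation over the 40 genes (r 0.01), but over the 12733 genes longer transcripts were shifted lower (r -0.33 and rho -0.36). The genotype means inherited it: across the 40 genes, GC content had an r of 0.81 with the Tfam+/- against WT difference, 0.80 with Zbp1-/- against WT, -0.73 with the double mutant against Tfam+/- and -0.79 with the double mutant against Zbp1-/-, but 0.19 with the double mutant against WT, which uses neither of the 2 libraries. The cause of the shift was not tested.

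**Figure D2:**
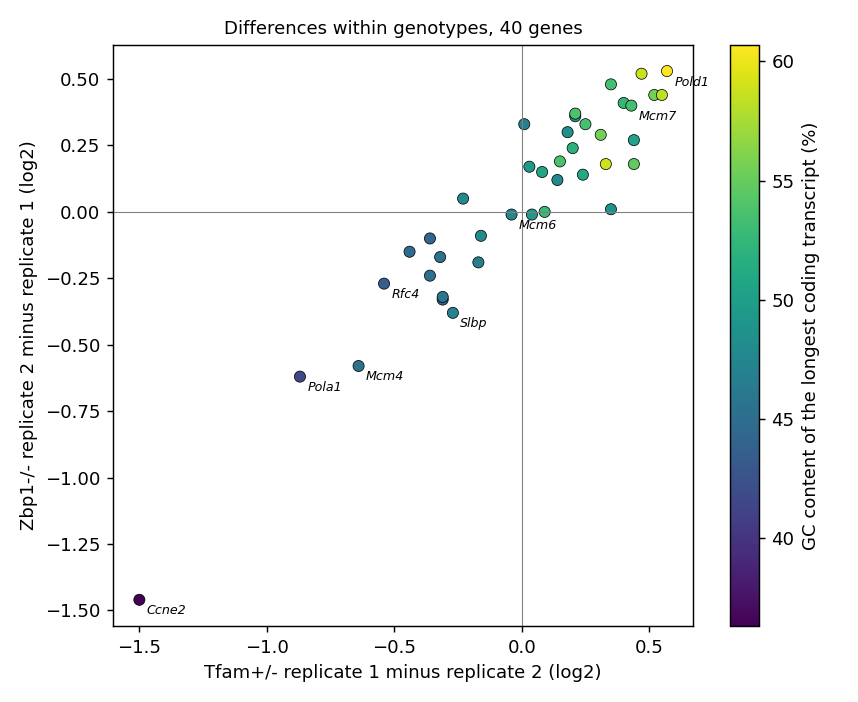
Each of the 40 genes by its log2 difference between the Tfam+/- libraries (horizontal, replicate 1 minus replicate 2) and between the Zbp1-/- libraries (vertical, replicate 2 minus replicate 1), coloured by the GC content of its longest coding transcript. The points lie along 1 diagonal, from Ccne2 at -1.50 and -1.46 to Pold1 at 0.57 and 0.53, with low-GC transcripts at the lower left and high-GC transcripts at the upper right.

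Each comparison was therefore fitted in 2 ways. The first was limma on log2(normalized count + 1) with genotype alone, the second the same with an added term shared by those 2 libraries, and a gene was called at an adjusted p under 0.05 over all 13267 genes. The term itself was called higher for 18 of the 40 genes and lower for 11, against 31.1% and 34.2% of all genes tested, and ran from -1.48 (Ccne2) to 0.55 (Pold1) on the log2 scale. It assumes that the shift is equal in the 2 libraries. These were chosen because they stood apart, so the term takes up much of the replicate spread within Tfam+/- and Zbp1-/-. The small adjusted p-values with the term rest on the spread that is left, largely that within WT and the double mutant. The prior degrees of freedom rose from 2.77 to 15.1. The fit by genotype alone called none of the 40 genes in any of the 6 comparisons. Calls given below as made with the shared term are not calls of the fit by genotype alone. Differences ± SE below are from the fit by genotype alone unless marked otherwise, and the shared term can change both.

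Promoter windows of 4 genes are shown because E2F factors are known to act at many promoters of replication genes. A part of E2F factors in the differences between genotypes was not tested. The windows are from RefSeq on GRCm38.p6, run from 250 bases before the annotated start to 50 after it, and exist for 32 of the 40 genes. The letters TTTGGCGC, TTTCCCGC, TTTGCCGC or TTTCGCGC, on either strand and with overlaps allowed, occurred in at least 1 window of 14 of those 32 genes (43.8%), against 480 of 10384 tested genes with a window (4.62%) and 2.6% of all 27025 genes with one. By role they were found in 7 of 9 licensing genes, 3 of 6 genes for polymerases and primase, and 0 of 4 nucleotide-supply genes. A match describes the letters only and is no measure of binding. Shown are the 3 genes with a match and the 1 gene without that had the smallest p in the double mutant against Zbp1-/-. Each is given 5′ to 3′ on the gene's strand, with the matched letters in capitals. This choice does not mirror the ranking by p. Prim1, without a match, had the smallest p of the 40 genes by genotype alone. Tyms, Rfc4, Rrm2, Rfc5 and Pcna, also without a match, had a smaller p than Orc1 and Mcm5. Of 17 mitosis genes with a window, 1 had a match (5.88%). Pole2 has its match past the annotated start, so only the bases around it are given (chr12:69228162-69228191, minus strand). Orc1 (chr4:108579204-108579453, plus strand), Mcm5 (chr8:75109259-75109508, plus strand, with a pair of overlapping matches) and Prim1 (chr10:128014965-128015214, plus strand, no match) are given for the 250 bases before the start.
Pole2: cgtcggcggtgGCGCCAAAtcgcgaacatg
Orc1: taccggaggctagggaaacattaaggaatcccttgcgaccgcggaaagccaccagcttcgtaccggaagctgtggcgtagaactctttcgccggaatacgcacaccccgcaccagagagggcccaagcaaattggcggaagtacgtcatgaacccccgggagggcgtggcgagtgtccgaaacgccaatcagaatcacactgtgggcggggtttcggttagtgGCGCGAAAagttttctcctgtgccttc
Mcm5: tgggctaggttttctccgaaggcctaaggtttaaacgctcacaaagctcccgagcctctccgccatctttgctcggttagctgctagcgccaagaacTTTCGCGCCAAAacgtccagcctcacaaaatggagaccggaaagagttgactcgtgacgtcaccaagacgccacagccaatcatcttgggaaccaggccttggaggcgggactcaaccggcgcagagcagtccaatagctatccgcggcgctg
Prim1: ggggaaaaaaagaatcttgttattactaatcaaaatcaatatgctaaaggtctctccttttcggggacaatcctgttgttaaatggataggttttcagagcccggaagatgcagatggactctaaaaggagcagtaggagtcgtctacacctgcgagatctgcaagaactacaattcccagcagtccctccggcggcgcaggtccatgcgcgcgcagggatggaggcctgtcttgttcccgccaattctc

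The 10 licensing genes had a median log2 difference of 0.15 in the double mutant against WT, the smallest of the roles, and of -0.13 in Zbp1-/- against WT. Orc1, the largest subunit of the origin recognition complex and the one that turns over with the cell cycle, had 161 and 173 normalized counts in WT, 155 and 174 in Tfam+/-, a mean of 132 ± 12.4 (SD, n = 2) in Zbp1-/-, and 177 and 194 in the double mutant. Its Zbp1-/- libraries lay below, and its double-mutant libraries above, all others. Cdc6, the loader ATPase, showed the same low Zbp1-/- pair (190 and 213, against 235 to 288 in the other 6 libraries), but its double-mutant pair of 244 and 288 overlapped WT (251 and 235). Cdt1, the partner of CDC6 in helicase loading, was instead highest in Tfam+/-, with 360 and 287 against 235 to 268 elsewhere. Orc6, the smallest origin recognition subunit, ranged from 601 to 843, with Zbp1-/- (679 and 601) below WT (764 and 750) and Tfam+/- (658 and 822) on both sides of it.

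Among the 6 subunits of the helicase ring, Mcm5 had the largest difference of the double mutant from WT. It had 974 and 954 normalized counts in WT, 1216 and 1055 in Tfam+/- cells, 885 and 1047 in Zbp1-/-, and 1318 and 1277 in the double mutant, where both libraries exceeded all others. Its difference of the double mutant from WT was 0.43 ± 0.13 (log2(normalized count + 1) scale, limma SE, 2 libraries per genotype), with adjusted p = 0.21 by genotype alone and 6.6e-07 with the shared term. Mcm6 was the subunit least touched by the shift, at -0.04 and -0.01 in the 2 within-genotype differences. Its levels were 2049 and 2131 in WT, 2234 and 2301 in Tfam+/- libraries, 1764 and 1754 in Zbp1-/-, and 2134 and 2195 in the double mutant. The 4 genotypes did not overlap for Mcm6 under the authors' scaling, in the order Zbp1-/-, WT, double mutant and Tfam+/-. The gap between WT and the double mutant was small there (2131 against 2134). Mcm6 was thus low in Zbp1-/-, high in Tfam+/-, and near WT in the double mutant (0.05 ± 0.09). Its Zbp1-/- difference from WT was -0.25 ± 0.09 by genotype alone (adjusted p = 0.21) and -0.24 ± 0.04 with the shared term (adjusted p = 0.00023). Mcm4 had 1792 and 1847 in WT and 2022 and 2019 in the double mutant, but 1269 and 1978 in Tfam+/- and 1712 and 1148 in Zbp1-/-. Its within-genotype differences exceeded its genotype differences. Mcm2, Mcm3 and Mcm7 were shifted the other way, each being highest in Tfam+/- replicate 1 (1792, 1650 and 1852) and lowest in Zbp1-/- replicate 1 (1205, 1031 and 1248). In the double mutant against WT, the shared-term fit called 5 of the 10 licensing genes higher (Mcm2, Mcm3, Mcm4, Mcm5 and Mcm7) and none lower, where 35.3% of all genes were called higher. After rescaling it called 3 of them (Mcm2, Mcm5 and Mcm7), where 12.2% of all genes were called higher.

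All 6 helicase activation genes had a higher mean in both genotypes with a Tfam lesion than in WT. The median log2 difference was 0.24 in Tfam+/- and 0.27 in the double mutant. Among all genes tested, 48.7% and 75.8% were above 0 in these comparisons. The Tfam+/- median includes the shifted replicate 1 and was 0.14 with the shared term, with 1 of the 6 called higher, against 7.39% of all genes. After rescaling, the double mutant had 5 of the 6 above 0 and a median of 0.15. Mcm10, a scaffold that helps the loaded helicase fire, had 221 and 242 normalized counts in WT, 354 and 277 in Tfam+/- cells, 225 and 226 in Zbp1-/-, and 286 and 314 in the double mutant. The 4 libraries with a Tfam lesion all lay above the 4 without. Cdc45, the helicase cofactor, gave 280 and 260 in WT, 343 and 296 in Tfam+/- libraries, 223 and 286 in Zbp1-/-, and 329 and 332 in the double mutant, so that Zbp1-/- and WT overlapped while both Tfam genotypes exceeded WT. The GINS subunits differed among themselves. Gins1 was lowest in Zbp1-/- replicate 1 (92.5) and highest in the double mutant (145 and 151). Gins3 was lowest in WT (130 and 132) and between 140 and 167 in every other library, and Gins4 was likewise lowest in WT (390 and 410, against 436 to 528). Gins2, at 291 to 445, followed the library shift. Of these genes, Mcm10, Cdc45 and Gins3 were called higher in the double mutant than in WT by the fit with the shared term, 3 of 6 against 35.3% of all genes. None of them was called after rescaling, where 12.2% of all genes were called higher.

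The 8 polymerase and primase genes included the pair with the smallest p in the double mutant against Zbp1-/-, Prim1 and Pole2. Pole2, the second subunit of polymerase epsilon on the leading strand, had 164 and 182 normalized counts in WT, 129 and 175 in Tfam+/- cells, 153 and 137 in Zbp1-/-, and 230 and 256 in the double mutant. Both double-mutant values exceeded all others, while the 6 other libraries lay between 129 and 182. By genotype alone its double-mutant difference was 0.74 ± 0.18 from Zbp1-/-, 0.69 ± 0.18 from Tfam+/- and 0.49 ± 0.18 from WT (adjusted p = 0.18, 0.083 and 0.33). With the shared term these were 0.59 ± 0.13, 0.54 ± 0.13 and 0.49 ± 0.12 (adjusted p = 0.0023, 0.0026 and 0.0026). Prim1, the catalytic primase subunit that lays the RNA primer, had 335 and 368 in WT, 285 and 365 in Tfam+/- libraries, 282 and 262 in Zbp1-/-, and 404 and 442 in the double mutant. It was low in Zbp1-/- and high in the double mutant, a difference of 0.64 ± 0.15 by genotype alone (adjusted p = 0.17). The shared-term fit put this difference at 0.52 ± 0.1 (adjusted p = 0.00058). Prim2, the regulatory primase subunit, shared the low Zbp1-/- pair (394 and 408, against 419 to 539), but its WT libraries spanned 419 to 509. Pole, the catalytic subunit of epsilon, was 583 and 568 in WT, 702 and 666 in Tfam+/- cells, 534 and 595 in Zbp1-/-, and 686 and 627 in the double mutant, with the Tfam genotypes above the others.

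Pola1, the catalytic subunit of polymerase alpha, illustrates how far 1 library can move a mean. It had 827 and 762 in WT, 493 and 901 in Tfam+/- libraries, 715 and 464 in Zbp1-/-, and 962 and 894 in the double mutant. Its difference of the double mutant from Zbp1-/- was 0.69 ± 0.31 by genotype alone and 0.31 ± 0.07 with the shared term. Pola2 (385 to 529), Pold1 (456 to 699) and Pold2 (350 to 530), the other subunits of alpha and delta on the list, were each highest in Tfam+/- replicate 1. The shared-term fit had 7 of the 8 polymerase and primase genes called higher in the double mutant than in WT, Prim2 being the other, against 35.3% of all genes. After rescaling 2 of them (Pold1 and Pole2) were called, against 12.2% of all genes. All 8 were called higher than in Zbp1-/-, against 12.8% of all genes, and again after rescaling, against 13.1%.

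The clamp, its loader and the flap-processing enzymes were higher in the double mutant than in WT without overlap for all 7 genes, as were 58.8% of all genes tested. Pcna, the sliding clamp, had 2142 and 2209 normalized counts in WT, 1864 and 2388 in Tfam+/- cells, 2004 and 1700 in Zbp1-/-, and 2694 and 2634 in the double mutant. The double mutant was 0.29 ± 0.15 above WT and 0.53 ± 0.15 above Zbp1-/- by genotype alone (adjusted p = 0.49 and 0.21). With the shared term these differences were 0.29 ± 0.04 and 0.38 ± 0.04 (adjusted p = 8.1e-06 and 2.1e-06). Rfc4, a small subunit of the clamp loader, gave 286 and 289 in WT, 215 and 313 in Tfam+/- libraries, 218 and 180 in Zbp1-/-, and 353 and 319 in the double mutant. It was lower in both Zbp1-/- libraries than in WT, but Tfam+/- replicate 1 lay in the same range. Rfc5, another loader subunit, barely took part in the shift and had 348 and 359 in WT, 391 and 380 in Tfam+/- cells, 338 and 337 in Zbp1-/-, and 452 and 430 in the double mutant. Its 4 genotypes did not overlap at all, in the order Zbp1-/-, WT, Tfam+/- and double mutant. Lig1, the ligase that seals lagging-strand fragments, had 660 and 653 in WT, 883 and 742 in Tfam+/- libraries, 659 and 831 in Zbp1-/-, and 919 and 908 in the double mutant, which was 0.48 ± 0.15 above WT (adjusted p = 0.23 by genotype alone and 9.6e-07 with the shared term). Fen1, the flap endonuclease, was highest in Tfam+/- (733 and 632), at 598 and 626 in the double mutant, 528 and 534 in WT, and 438 and 566 in Zbp1-/-. Rfc2 (538 to 730) and Rfc3 (267 to 408) overlapped between Zbp1-/- and the double mutant.

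All 4 nucleotide-supply genes were called higher with the shared term in the double mutant than in WT, where 35.3% of all genes were, and than in Zbp1-/-, where 12.8% were. After rescaling, where 12.2% of all genes were called higher against WT, Rrm1 was no longer called against WT. Tyms, thymidylate synthase, the enzyme that makes dTMP from dUMP, had 575 and 566 normalized counts in WT, 655 and 596 in Tfam+/- cells, 562 and 611 in Zbp1-/-, and 838 and 770 in the double mutant. The first 3 genotypes lay together between 562 and 655, and only the double mutant stood clear of them. By genotype alone the double mutant was 0.49 ± 0.11 above WT, 0.36 ± 0.11 above Tfam+/- and 0.45 ± 0.11 above Zbp1-/- (adjusted p = 0.11, 0.13 and 0.18). With the shared term these differences were 0.49 ± 0.06, 0.43 ± 0.07 and 0.52 ± 0.07 (adjusted p = 3.1e-06, 4.4e-05 and 1e-05). Rrm2, the S-phase subunit of ribonucleotide reductase, had 2345 and 2294 in WT, 2082 and 2581 in Tfam+/- libraries, 2059 and 1649 in Zbp1-/-, and 2741 and 2692 in the double mutant. Both Zbp1-/- libraries were below, and both double-mutant libraries above, all others. Its larger partner Rrm1 had 4442 and 4352 in WT and 4779 and 4630 in the double mutant, with Tfam+/- (3808 and 4725) and Zbp1-/- (4245 and 3386) spread widely. Tk1, thymidine kinase of the salvage route, was highest in Tfam+/- replicate 1 (885, with 615 in its partner) and had 790 and 848 in the double mutant, 652 and 632 in WT, and 572 and 775 in Zbp1-/-.

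**Figure D3:**
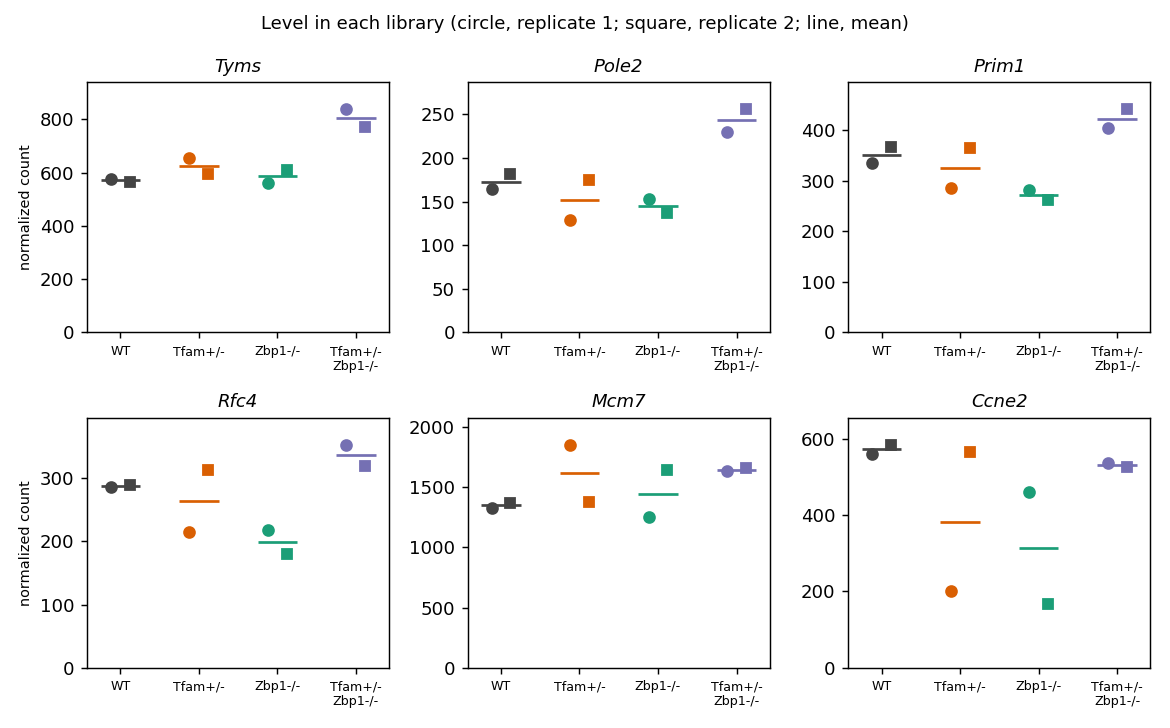
Normalized counts of 6 of the genes by genotype, with circles for replicate 1, squares for replicate 2 and a line at the mean of the 2 libraries; each vertical axis starts at 0. Tyms, Pole2, Prim1 and Rfc4 have both double-mutant points above all others, while Mcm7 and Ccne2 show the split of the Tfam+/- and Zbp1-/- pairs in opposite directions.

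The 5 genes of G1/S control and chromatin had a median log2 difference of 0.19 in the double mutant against WT, with 4 above 0. Ccne1, which encodes cyclin E1, was highest in Tfam+/- (698 and 654), lowest in Zbp1-/- (567 and 566), and 609 and 590 in WT against 603 and 620 in the double mutant. The double mutant thus overlapped WT. Ccne2 was the only gene of the 40 whose 2 double-mutant libraries were both below WT (-0.11 ± 0.58 by genotype alone, -0.11 ± 0.07 with the shared term, adjusted p = 0.23). E2f1, the transcription factor that drives many genes of this list, had 508 and 472 in WT, 696 and 475 in Tfam+/- cells, 531 and 719 in Zbp1-/-, and 571 and 561 in the double mutant, so the high values were the 2 shifted libraries. Slbp, which encodes the protein that binds the histone mRNA stem-loop, was highest in the double mutant (876 and 907, against 598 to 819). Uhrf1, which directs maintenance DNA methylation behind the fork, had 1314 and 1378 in WT, 1588 and 1434 in Tfam+/- libraries, 1162 and 1324 in Zbp1-/-, and 1556 and 1663 in the double mutant. Both Tfam genotypes exceeded WT for Uhrf1, and Zbp1-/- overlapped it.

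In Tfam+/- against WT, the comparison for loss of 1 Tfam allele, 28 of the 40 genes were above 0 with a median of 0.17 (all genes tested, -0.01). No gene was called by genotype alone in limma, where 0.731% of all genes were, and 1 of 40 (Mcm10) was higher at an unadjusted p under 0.05, against 4.41%. Both Tfam+/- libraries were above both WT libraries for 20 genes and below for 0, where 23.3% and 25.5% of all genes did so. Mcm10 was 0.43 ± 0.15 higher, Cdt1 0.35 ± 0.15 and Fen1 0.36 ± 0.15 (adjusted p = 0.47, 0.56 and 0.56). With the shared term, 6 genes rose (Rrm1, Rrm2, Mcm2, Mcm6, Mcm10 and Fen1) and none fell, against 7.39% of all genes higher and 8.20% lower, and the median was 0.09. These 6 calls became 0 without WT replicate 2, 2 without WT replicate 1 and 1 without Tfam+/- replicate 2. Removing the GC trend in place of the shared term gave 0 called, against 1.86% of all genes called higher.

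In Zbp1-/- against WT, the replication genes lay below the rest of the transcriptome. Their median was -0.07, with 15 of 40 above 0, while all genes tested had a median of 0.11, and rescaling the libraries by the trimmed mean of M-values put the 40 genes at -0.19 with 8 above 0. By genotype alone limma called none of them, against 1.06% of all genes, and 3 of 40 (Mcm6, Rfc4 and Prim1) were lower at an unadjusted p under 0.05, against 3.29%. Rfc4 was -0.54 ± 0.20 and Prim1 -0.37 ± 0.15 (adjusted p = 0.22 and 0.25). Both Zbp1-/- libraries were below WT for 16 genes and above for 5, where 16.8% and 42.1% of all genes did so. In the shared-term fit 11 genes fell (Mcm3, Mcm6, Mcm7, Cdc6, Prim1, Rfc4, Fen1, Rrm2, Tk1, Ccne2 and Uhrf1) and none rose, against 7.01% of all genes lower and 28.5% higher. The scaling set the size of that count: with the shared term and the rescaling together, 26 genes were called lower, against 16.6% of all genes. The 11 calls were 2 without Zbp1-/- replicate 1, 5 without WT replicate 2 and 7 without WT replicate 1. Removing the trend with transcript GC content from each library in place of the shared term gave 5 called lower (Cdt1, Mcm2, Fen1, Rrm2 and Uhrf1), against 4.3% of all genes, and 3 of these 5 were among the 11.

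The double mutant against WT is the comparison that uses neither shifted library in its means. Here 39 of the 40 genes were above 0, with a median of 0.23 and a range of -0.11 to 0.49. Among all genes tested 75.8% were above 0 and the median was 0.12, so most of the transcriptome leaned the same way under the authors' scaling. After rescaling, 33 of the 40 genes were above 0 with a median of 0.11, and the median of all genes was 0.00. By genotype alone limma called none, against 1.38% of all genes, and 8 of 40 were higher at an unadjusted p under 0.05, against 9.0%, and none lower. Both double-mutant libraries were above both WT libraries for 35 genes and below for 1 (Ccne2), where 58.8% and 14.1% of all genes did so. The shared-term fit called 28 genes higher and 0 lower, against 35.3% of all genes higher and 7.19% lower. The 12 not called were Orc1, Orc6, Cdc6, Cdt1, Mcm6, Gins1, Gins2, Gins4, Prim2, Rfc4, Ccne1 and Ccne2. When the libraries were also rescaled, 12 rose (Mcm2, Mcm5, Mcm7, Pold1, Pole2, Pcna, Rfc3, Lig1, Rrm2, Tyms, Tk1 and Uhrf1) and 1 fell (Ccne2), against 12.2% and 14.3%. All 12 were among the 28 called under the authors' scaling. Removing the GC trend in place of the shared term gave 2 called higher (Mcm5 and Lig1), against 3.38% of all genes, with a median of 0.09.

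The double mutant against Tfam+/- asks what loss of Zbp1 adds where 1 Tfam allele is missing. It had 28 of 40 genes above 0 and a median of 0.12, below the median of 0.14 for all genes tested. After rescaling the median of the 40 genes was 0.00, with 21 above 0. None was called by genotype alone in limma, against 5.64% of all genes, and 3 (Pole2, Tyms and Prim1) were higher at an unadjusted p under 0.05, against 14.6%, and none lower. Prim1 was 0.39 ± 0.15 higher (adjusted p = 0.21). Both double-mutant libraries were above both Tfam+/- libraries for 15 genes and below for 4, where 42.4% and 13.5% of all genes did so. In the fit with the shared term, 15 genes were called higher and 0 lower, close to the 35.4% of all genes called higher (10.2% lower), led by Tyms, Tk1 and Mcm5. With the rescaling as well, 8 rose (Mcm5, Mcm7, Pold1, Pole2, Rfc3, Lig1, Tyms and Tk1) and 3 fell (Mcm6, Rrm1 and Ccne1), against 17.0% and 16.8%. Without Tfam+/- replicate 2 the 15 calls were 8. Removing the GC trend in place of the shared term gave 1 called higher (Pole2), against 8.65% of all genes.

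The double mutant against Zbp1-/- compares 1 lost Tfam allele with none where Zbp1 is missing, and it had the largest median of the 5 pairwise comparisons. By genotype alone 38 of the 40 genes were above 0 with a median of 0.32, while all genes tested had a median of 0.02, and rescaling left 38 above 0 at 0.31. Limma called none, against 0.415% of all genes, and 16 were higher at an unadjusted p under 0.05, against 5.63%, and none lower. Both double-mutant libraries were above both Zbp1-/- libraries for 31 genes and below for 0, where 26.2% and 23.3% of all genes did so. With the shared term all 40 genes were above 0, from 0.01 (Gins4) to 0.59 (Gins1 and Pole2), and 33 rose, against 12.8% of all genes higher and 11.0% lower. The 7 not called were Cdt1, Gins3, Gins4, Rfc2, Ccne1, Ccne2 and E2f1. After rescaling as well, 33 were again called higher, against 13.1% of all genes, and all 33 were among those called without the rescaling. The count rests in part on 1 library: without Zbp1-/- replicate 1 it was 14, all higher, and all 40 genes were still above 0. With the GC trend removed in place of the shared term, 11 genes were called higher (Mcm2, Mcm5, Pole2, Pcna, Rfc4, Rfc5, Fen1, Lig1, Rrm2, Tk1 and Uhrf1), against 3.75% of all genes. Summed leukocyte markers were near each other in these 2 genotypes (2570 to 2850 and 2294 to 2307), while muscle, epithelial and neural crest markers were lower in the double mutant. Endothelial markers were higher in the double mutant (302 to 318) than in Zbp1-/- (233 to 272).

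**Figure D4:**
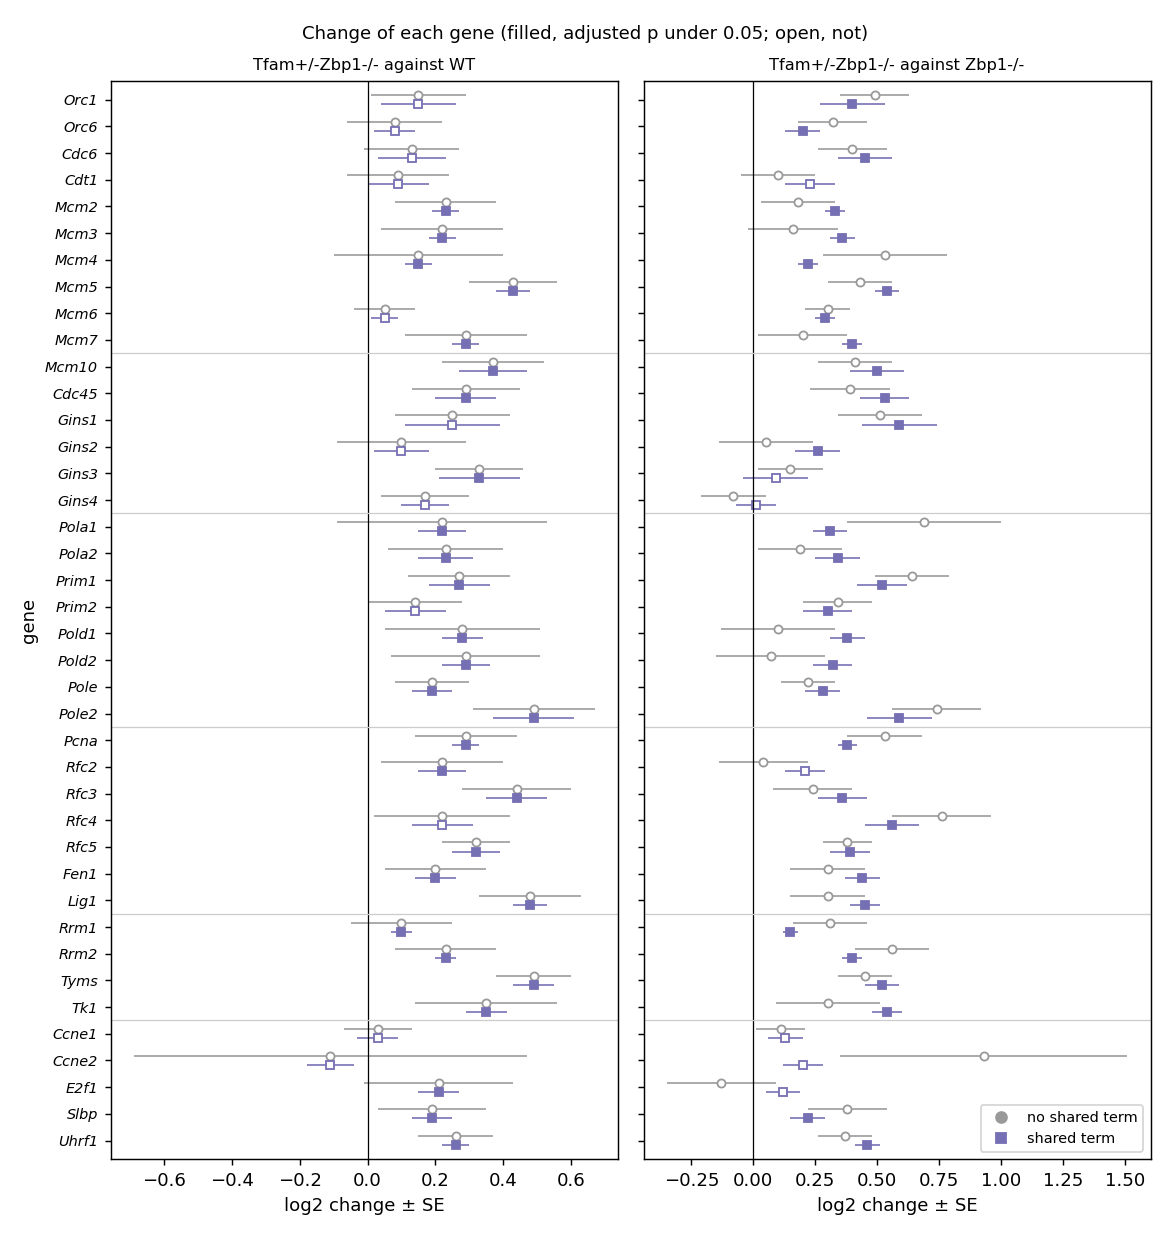
Log2 difference of each of the 40 genes in the double mutant against WT (left) and against Zbp1-/- (right), with limma standard errors, by genotype alone (circles) and with the term shared by the 2 shifted libraries (squares); filled symbols have an adjusted p under 0.05. No circle is filled, 28 squares are filled on the left and 33 on the right, and the standard errors of the squares are shorter.

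The interaction asks whether the difference that goes with 1 lost Tfam allele is larger without Zbp1 than with it. By genotype alone its median over the 40 genes was 0.16, with 24 above 0 (all genes tested, 0.00). Limma called none, against 0.663% of all genes, and 6 were higher at an unadjusted p under 0.05, against 8.04%, and none lower. The leading 3 were Pole2 at 0.94 ± 0.25, Prim1 at 0.76 ± 0.22 and Rfc4 at 0.91 ± 0.28 (adjusted p = 0.19, 0.20 and 0.24). Adding the shared term gave a median of 0.24 with 36 above 0, and 13 genes were called higher (Mcm3, Mcm5, Mcm7, Prim1, Pold1, Pole2, Pcna, Rfc4, Lig1, Rrm2, Tyms, Tk1 and Uhrf1) and none lower, against 8.46% and 8.43% of all genes. The estimates of these were between 0.24 (Mcm3) and 0.64 (Pole2). Without Zbp1-/- replicate 1 the 13 calls were 3, and without Tfam+/- replicate 2 they were 6. Removing the GC trend in place of the shared term gave 1 called higher (Uhrf1), against 3.09% of all genes.

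Other gene lists of the cycle were set beside the 40 genes. The 21 mitosis genes had a median of -0.24 in Zbp1-/- against WT (2 above 0), 0.24 in the double mutant against WT (21 above 0) and 0.46 in the double mutant against Zbp1-/- (21 above 0). In the last of these, 17 were higher at an unadjusted p under 0.05 by genotype alone in limma, against 5.63% of all genes. With the shared term 21 were called higher there, against 12.8%. The 37 other replication factors, such as the RPA and CAF-1 subunits, had medians of -0.20, 0.20 and 0.37 in these comparisons, in the order named for the mitosis genes. In the shared-term fit 1, 18 and 25 of them were called higher, against 28.5%, 35.3% and 12.8% of all genes. Called lower were 4, 0 and 0 of them, against 7.01%, 7.19% and 11.0% of all genes. The 15 other nucleotide-supply genes had -0.10, 0.14 and 0.17, and the 24 other G1/S regulators -0.10, 0.12 and 0.18. Of 69 genes picked by the names of replication-dependent histone clusters, 13 passed the filter on low values. Their median was -0.37 in the double mutant against Zbp1-/-, with 2 above 0. The highest of the 13 was Hist1h2bc, at 839 to 1259 normalized counts. Most replication-dependent histone mRNAs lack a poly(A) tail, which need not hold for the 13. A poly(A) selection of the libraries is neither stated nor denied in the sources used here.

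The 7 CDK inhibitors, which hold back G1 and S-phase kinases, were the only list with members called by genotype alone. Cdkn2c, an inhibitor of the cyclin D kinases, had 252 and 297 normalized counts in WT, 207 and 203 in Tfam+/- cells, 301 and 263 in Zbp1-/-, and 377 and 427 in the double mutant. It rose by 0.96 ± 0.14 in the double mutant against Tfam+/- (limma, adjusted p = 0.013). It was the only 1 of the 7 called there, where 5.64% of all genes were called. Cdkn1c, an imprinted gene for a broad CDK inhibitor, had 1593 and 1752 in WT, 1328 and 1217 in Tfam+/- libraries, 2360 and 2569 in Zbp1-/-, and 1374 and 1429 in the double mutant. It fell by 0.81 on the log2 scale (SE 0.11) in the double mutant against Zbp1-/- (limma, adjusted p = 0.046). It was the only 1 of the 7 called there, where 0.415% of all genes were called. Over the 7 inhibitors the median in that comparison was -0.24 with 3 above 0.

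**Figure D5:**
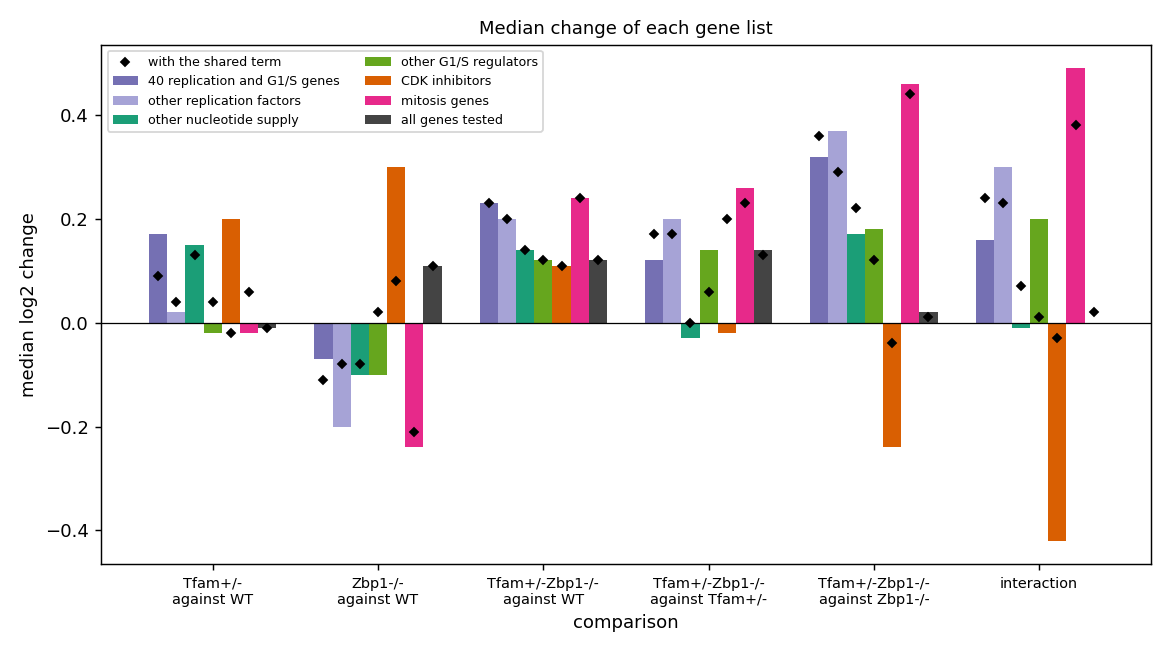
Median log2 difference of each gene list in the 6 comparisons by genotype alone (bars from 0) and with the shared term (diamonds). The 40 replication and G1/S genes, the other replication factors and the mitosis genes lie above all genes tested in the double mutant against Zbp1-/- (0.32, 0.37 and 0.46 against 0.02) and below them in Zbp1-/- against WT (-0.07, -0.20 and -0.24 against 0.11).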

How the data were processed

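The deposited table gives, for each of 24972 genes, 1 normalized count per library, a scaled signal that is not whole. Per the labels' protocols the authors aligned reads with STAR to mm10 (RefSeq) on BaseSpace, and the submitters' processing notes name STAR 2.6.1a and Salmon. The sources used here do not state how the authors counted reads, whether they used strand, or how they scaled this deposited signal, so reads of overlapping or antisense genes may be mixed and no count model was used.

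Genotypes were taken from the sample titles, with 2 libraries each. Values were tested as log2(normalized count + 1) with limma 3.58.1 in R 4.3.3 (1 mean per genotype over 8 libraries, empirical Bayes with trend, two-sided), for genes with a mean of at least 10, with Benjamini-Hochberg adjustment over 13267 genes and a threshold of 0.05. A second fit added a term shared by Tfam+/- replicate 1 and Zbp1-/- replicate 2. By genotype alone the fit had 4 residual and 2.77 prior degrees of freedom, and with the shared term 3 and 15.1. The script was tested on simulated data. Alternatives were another pseudocount, other filters, rescaling by a trimmed mean of M-values (trims of 30% and 5% at each end), a replicate block, only the genotypes compared, a prior without trend, 6 libraries, and leaving out each library. Removal of the trend with transcript GC content, a crossed block, and the shared term combined with rescaling or with leaving out a library were chosen after seeing the data.

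The genes, lists and shared term were chosen with earlier results of these data known. In each comparison, genes were to be named if called, or else the 3 with the smallest p; other genes appear by their levels. Transcript GC content is that of the longest coding GENCODE M21 transcript, and gene positions and promoters are from RefSeq on GRCm38.p6. Levels are not corrected for length and are not compared between genes. All columns of the table were used.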

Additional observations from a re-analysis of the deposited data

How the results depend on the processing

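By genotype alone, 0 of the 40 genes were called in each of the 6 comparisons with a pseudocount of 5, without a filter, with a mean of at least 50, after rescaling, and with a prior without trend. Leaving out 1 library gave 0 to 0 calls, except 0 to 1 in the double mutant against Tfam+/- (1 without Tfam+/- replicate 2). With only the genotypes compared, 29 were called in the double mutant against WT. The share of all genes called in that fit was not computed, so the 29 cannot be read as particular to these genes. With the shared term the counts were 6 (Tfam+/- against WT), 11 (Zbp1-/- against WT), 28, 15 and 33 (double mutant against WT, Tfam+/- and Zbp1-/-) and 13 (interaction). The 6 libraries without both shifted ones leave Tfam+/- and Zbp1-/- 1 library each, assumed to vary like the others, so only medians are given here. In the same order these medians were 0.12, -0.11, 0.23, 0.12, 0.37 and 0.24. With the GC trend removed the counts were 0, 5, 2, 1, 11 and 1. The median in the double mutant against WT was 0.23 and became 0.11 after rescaling and 0.09 with the GC trend removed. Leaving out 1 library gave medians of 0.12 to 0.23, -0.11 to 0.01, 0.22 to 0.24, 0.07 to 0.15, 0.29 to 0.37 and 0.05 to 0.24 in the order above.

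With the shared term kept, rescaling changed the counts to 26 in Zbp1-/- against WT and 13 in the double mutant against WT, and leaving out 1 of the other 6 libraries gave 0 to 6, 2 to 11, 20 to 29, 8 to 15, 14 to 32 and 3 to 11 calls. Of 321 alternative values of the 18 named genes and comparisons, 281 stayed on the same side of the threshold, 40 came past it, and none changed direction; 17 of the 40 came with the shared term and 15 with the 6 libraries. Depth could not be recovered from normalized values, and 2 libraries per genotype limit every test.

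The replicate numbers did not pair the samples: the correlation of replicate differences over genes between genotypes ran from -0.70 (Tfam+/- and Zbp1-/-) to 0.06. With the replicate block the counts were 0 in all 6 comparisons and the medians 0.17, -0.07, 0.23, 0.12, 0.32 and 0.16. The crossed block, with the numbers of Zbp1-/- and the double mutant exchanged, also called 0 in all 6.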
